A study of Mus musculus with 7 samples.

Results

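The DNA replication and mitosis genes described here were a list of 40 mouse genes that dividing cells switch on in S phase (19 genes) or in G2 and mitosis (21 genes). Members were the array probes whose RefSeq accession maps to a listed symbol. Of the 40 genes, 38 were measured (19 of each class), out of 13971 genes named on the array. Mki67 and Bub1 had no probe named through RefSeq. Each of the 38 exceeded background on 1 or more of the 7 arrays, and 30 did so on every array.

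Total RNA from mouse mammary glands kept in organ culture was measured on 7 CodeLink arrays, a 1-colour oligonucleotide platform, with 1 array per group. The mice were 4-week-old females. For the αERKO, βERKO and DMBA-treated WT arrays, RNA from the glands of 5 mice was pooled by equal mass, and the pools behind the other 4 arrays are not given in the sources used here. A level below is the log2 of a probe's intensity over its array's median, so that 0 is the median probe, and levels of different genes were not compared.

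By label, the αERKO glands carried a knockout of Esr1, the gene for estrogen receptor α, and the βERKO glands one of Esr2, that for estrogen receptor β. Both lines had a C57BL6/129SV background and were cultured for 24 days. WT glands came from C57 mice and were cultured for 24 days with the carcinogen 7,12-dimethylbenz[a]anthracene (DMBA), for 24 days without it, or for 10 days without it. Glands of Balb/c mice were cultured for 24 days, either alone or with Vitamin D5. The protocol gave 10 days of growth in insulin, prolactin, aldosterone and hydrocortisone, DMBA at 2 µg/ml on Day 3 for 24 h, and 14 days of regression in insulin alone. The study describes its WT, αERKO and βERKO arrays as glands exposed to DMBA, so those 3 share that exposure by its account. The titles state a DMBA condition for C57 arrays only. The study also reports that the WT and βERKO glands held preneoplastic lesions after DMBA and that the αERKO glands held none. Balb/c titles state no DMBA condition, and no dose of Vitamin D5 is given. The study's methods give EGF (25 ng) plus progesterone (1 mg) for 5 days before excision in WT and knockout mice. They also describe estrogen (1 µg) plus progesterone for 9 days, and which pretreatment the C57 arrays without DMBA and the Balb/c arrays had is not given in the sources used here. Backgrounds also differed between the knockout lines (C57BL6/129SV) and WT (C57), so genotype and background cannot be told apart. On αERKO the lack of lesions cannot be told apart from either.

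Of 34967 gene probes, between 68.4% and 74.2% were called good (above background) on each array. The Esr1 probe was near background on αERKO and on 4 others and good on WT with DMBA and on Balb/c with Vitamin D5, so it separated no genotype. The Esr2 probe was brightest, at a log2 level of 0.87, on the array labelled βERKO, against its label, and that wording is kept throughout. Whether the probe lies in the deleted part is unknown. The epithelial marker Epcam was present on every array, between 6.29 and 7.72. Summed epithelial markers were lowest on αERKO, at 490 array medians against 910 to 1680 on the others. Milk protein Csn2 was near background on αERKO, the array labelled βERKO and Balb/c. The αERKO array stood apart by its skeletal muscle markers, with 8 of 8 good and a summed intensity of 2170 array medians, against 8.12 to 51.3 on the others. With 1 array per group no difference had a replicate check and no test was run. The SD of the log2 ratio between probes of the same accession, a technical yardstick only, was 0.61 for αERKO against WT with DMBA, 0.38 for the array labelled βERKO against WT with DMBA and 0.58 between both knockout arrays. It was 0.31 for WT with against without DMBA, 0.24 between the WT arrays of 10 and 24 days, 0.23 for Vitamin D5 and 0.33 for Balb/c against WT. In whole glands, fewer dividing cells and less RNA per cell cannot be told apart.

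A cell copies its DNA once per division. In G1, Cdc6 and Cdt1 load the ring of Mcm2 to Mcm7, the replicative helicase, onto origins, and E2F factors with cyclin E open S phase, when enzymes such as thymidylate synthase and ribonucleotide reductase supply nucleotides. Cyclin B with Cdk1 then drives entry into mitosis, spindle proteins and Aurora and Polo-like kinases separate the chromosomes, and Cdc20 and Ube2c direct the anaphase-promoting complex that destroys the cyclins. In the mammary gland these genes are known as markers of the proliferation that prolactin and ovarian hormones drive in ducts and alveoli.

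The classes are also known to differ in their promoters: E2F sites are typical of S phase genes, and CHR elements with CCAAT boxes of G2 and mitosis genes. RefSeq promoters (GRCm38.p6; 250 bases before to 50 after the start, 300 in all) were found for 33 of the 40 members, 34 promoters in all. Each was searched on both strands for the CHR letters TTTGAA, for CCAAT, and for the 4 E2F octamers TTTGGCGC, TTTCCCGC, TTTGCCGC and TTTCGCGC. TTTGAA stood in 11 of 17 mitosis promoters (64.7%), in 1 of 17 replication promoters (5.88%, that of Mcm2) and in 17.9% of all 32851 promoters. CCAAT stood in 82.4% of mitosis, 58.8% of replication and 37.4% of all promoters. An E2F octamer stood in 7 of 17 replication promoters (41.2%; Cdc6, Cdt1, Ezh2, Mcm3, Mcm5, Mcm6 and Mcm7), in 1 of 17 mitosis promoters (5.88%, that of Cdk1) and in 2.26% of all. A further 45 promoters of other mitosis genes held TTTGAA in 73.3% and an E2F octamer in 8.89%, and 48 of other replication genes held them in 16.7% and 27.1%. CCAAT stood in 62.2% of the former and 52.1% of the latter. The choice of members did not use these letters. A match is a run of letters and no proof of binding.

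Promoters of 3 mitosis and 3 replication members are printed to show both patterns. They were picked with the values in view, among members that were lower at 24 than at 10 days. Nusap1 (-2.39), Birc5 (-1.80) and Tk1 (-2.52), by log2 ratio also over 2-fold lower then, held no match to any of the 3 motifs. A link between motifs and levels was not tested. Capitals mark the CHR letters, the CCAAT boxes (which read ATTGG on the other strand) and the E2F octamers, of which GCGGGAAA in Cdc6 is a reverse complement, and overlapping octamers run together in Mcm5 and Mcm6.
Cdk1, chr10:69352863-69353162, minus strand: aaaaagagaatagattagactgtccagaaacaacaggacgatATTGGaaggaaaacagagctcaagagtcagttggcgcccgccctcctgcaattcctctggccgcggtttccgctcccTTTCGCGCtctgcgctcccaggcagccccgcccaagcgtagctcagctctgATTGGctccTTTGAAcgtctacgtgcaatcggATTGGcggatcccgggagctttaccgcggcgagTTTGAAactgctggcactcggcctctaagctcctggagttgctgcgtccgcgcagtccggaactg
Ccnb2, chr9:70421505-70421804, minus strand: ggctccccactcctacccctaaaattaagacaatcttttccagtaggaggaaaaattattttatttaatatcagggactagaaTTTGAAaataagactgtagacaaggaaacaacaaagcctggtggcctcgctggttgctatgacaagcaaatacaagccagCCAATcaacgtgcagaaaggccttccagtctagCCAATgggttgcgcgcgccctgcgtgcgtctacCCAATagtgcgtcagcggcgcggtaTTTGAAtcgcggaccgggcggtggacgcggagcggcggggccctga
Cenpa, chr5:30666636-30666935, plus strand: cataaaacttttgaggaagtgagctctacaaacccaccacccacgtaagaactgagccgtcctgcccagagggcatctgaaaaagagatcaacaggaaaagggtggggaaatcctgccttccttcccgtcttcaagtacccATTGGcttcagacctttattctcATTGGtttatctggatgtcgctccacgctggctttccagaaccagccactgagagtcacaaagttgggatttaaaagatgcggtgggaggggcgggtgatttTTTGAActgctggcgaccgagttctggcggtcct
Mcm5, chr8:75109259-75109558, plus strand: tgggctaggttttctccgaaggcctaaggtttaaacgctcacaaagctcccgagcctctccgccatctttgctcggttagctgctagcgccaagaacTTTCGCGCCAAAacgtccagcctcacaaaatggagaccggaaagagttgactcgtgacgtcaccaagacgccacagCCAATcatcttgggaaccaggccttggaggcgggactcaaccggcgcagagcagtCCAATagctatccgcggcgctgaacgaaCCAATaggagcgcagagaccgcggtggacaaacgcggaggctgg
Mcm6, chr1:128359656-128359955, minus strand: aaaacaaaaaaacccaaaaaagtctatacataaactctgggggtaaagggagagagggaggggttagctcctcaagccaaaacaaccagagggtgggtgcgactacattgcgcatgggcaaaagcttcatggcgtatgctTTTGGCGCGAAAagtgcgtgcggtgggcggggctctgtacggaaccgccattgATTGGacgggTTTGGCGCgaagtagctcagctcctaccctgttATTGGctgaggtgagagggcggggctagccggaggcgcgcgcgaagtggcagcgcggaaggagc
Cdc6, chr11:98907901-98908200, plus strand: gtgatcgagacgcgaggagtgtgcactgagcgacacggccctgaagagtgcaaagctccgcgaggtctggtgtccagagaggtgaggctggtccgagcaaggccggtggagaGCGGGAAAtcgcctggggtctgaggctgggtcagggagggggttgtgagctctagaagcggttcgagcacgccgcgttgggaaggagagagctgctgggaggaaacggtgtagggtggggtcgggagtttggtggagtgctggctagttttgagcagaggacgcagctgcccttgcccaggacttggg
In the first 3, the CHR letters nearest the start site have the CCAAT boxes before them. Ccnb2 also holds CHR letters far upstream, ahead of all its CCAAT boxes. Cdk1 also holds CHR letters ahead of its last CCAAT box, and an E2F octamer. Mcm5 and Mcm6 hold CCAAT boxes with E2F octamers and no CHR letters, and Cdc6 holds an E2F octamer alone.

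Across the 7 arrays the mitosis members spread more than the replication members. The difference between a gene's highest and lowest array on the log2 scale ran from 0.63 to 4.38 (median 2.58) over 19 mitosis members and from 0.57 to 3.56 (median 1.82) over 19 replication members. It passed 2 in 14 mitosis and 7 replication members. These include Plk1, Aurkb, Rrm1 and Ccne2, whose lowest spots were near background, so their true ranges are not known. The lowest spot of Mcm2, whose range is the replication median, was also near background. The same range was not taken over all genes. Mitosis members had median log2 levels of 0.53 on αERKO, 1.14 on the array labelled βERKO, 0.84 on WT with DMBA, 1.98 on WT at 10 days, 0.96 on WT at 24 days, 2.04 on Balb/c and 2.80 on Balb/c with Vitamin D5. Replication members had medians of 1.06, 1.75, 1.80, 2.26, 1.54, 2.27 and 2.69 in the same order. Both medians were lower on the knockout arrays and the WT arrays of 24 days than on WT at 10 days and on the Balb/c arrays. The Balb/c array with Vitamin D5 was the highest of the 7 for 18 of 19 mitosis and 13 of 19 replication members, against 11.6% of 13244 genes. WT at 24 days without DMBA was the lowest for 8 mitosis and 6 replication members, against 7.48% of genes. The αERKO array was the lowest for 8 and 12, against 36.4% of genes.

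**Figure D1:**
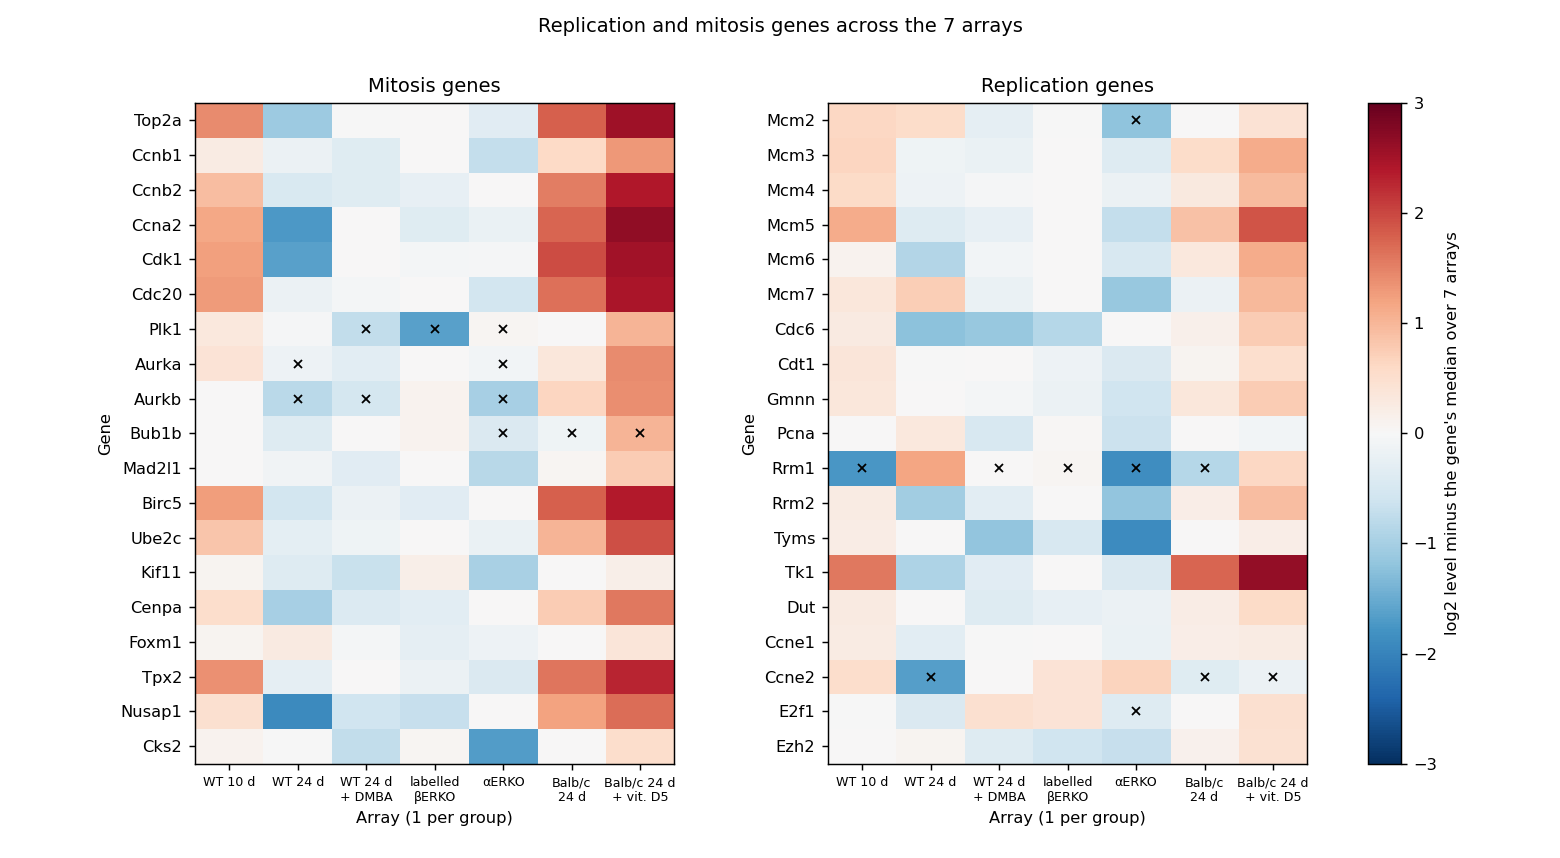
Log2 level (colour; log2 of intensity over the array median) of the 19 mitosis and 19 replication members, minus each gene's median over the 7 arrays; columns are arrays, 1 per group, and a cross marks a spot that was not called good. The Balb/c array with Vitamin D5 is the highest for 18 mitosis and 13 replication members.

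Among the engines of mitosis, Cdk1, the kinase that drives entry into mitosis, had log2 levels of 3.12 on αERKO, 3.09 on the array labelled βERKO, 3.16 on WT with DMBA, 4.38 on WT at 10 days, 1.52 on WT at 24 days, 5.12 on Balb/c and 5.68 on Balb/c with Vitamin D5. Its level on WT at 24 days was far under all others, and the arrays of the knockouts and of WT with DMBA lay side by side. Ccna2, cyclin A2, which pairs with Cdk1 and Cdk2, ran 1.02, 0.87, 1.23, 2.39, -0.49, 2.98 and 3.89 over the same arrays in the same order. Ccnb2, a B-type cyclin, ran 2.15, 1.90, 1.79, 3.08, 1.69, 3.68 and 4.57, so the Balb/c arrays and WT at 10 days stood above the other 4 for all 3 genes. Ccnb1, the other B-type cyclin, moved less, from 0.42 on αERKO to 2.43 on Balb/c with Vitamin D5. Foxm1, the transcription factor of G2 genes, kept between 0.30 and 0.93 on all 7 arrays, the narrowest range of the mitosis members. Cks2, a small partner of Cdk1, departed from the cyclins: 0.95 on αERKO, 2.68 on the array labelled βERKO, 1.89 on WT with DMBA, 2.74 on WT at 10 days, 2.62 on WT at 24 days, 2.63 on Balb/c and 3.17 with Vitamin D5. It was thus low on αERKO rather than on WT at 24 days.

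Among genes of the spindle and chromosomes, Top2a, the topoisomerase that untangles sister chromosomes, had log2 levels of -0.07 on αERKO, 0.25 on the array labelled βERKO, 0.24 on WT with DMBA, 1.67 on WT at 10 days, -0.83 on WT at 24 days, 2.04 on Balb/c and 2.80 on Balb/c with Vitamin D5. Nusap1, which bundles spindle microtubules, ran 3.01, 2.32, 2.42, 3.49, 1.09, 4.23 and 4.68 in that order. Birc5, survivin of the chromosomal passenger complex, ran 2.96, 2.61, 2.77, 4.21, 2.41, 4.75 and 5.34. All 3 were lowest on WT at 24 days and highest with Vitamin D5. Tpx2, which activates Aurora A on the spindle, spanned 0.41 (αERKO) to 3.12, and Cenpa, the histone of centromeres, 0.96 (WT at 24 days) to 3.53, both highest with Vitamin D5. Kif11, the motor that pushes spindle poles apart, had probes that disagreed. On the probe used, the array labelled βERKO and Balb/c with Vitamin D5 were level at 1.68, and on the other probe they read 0.04 and 1.88.

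Of the regulators of chromosome separation, Cdc20 ran from -0.38 on αERKO to 2.61 with Vitamin D5, and Ube2c from 2.16 on WT at 24 days to 4.38 with Vitamin D5. Mad2l1, of the spindle checkpoint, lay between 1.12 on αERKO and 2.72 with Vitamin D5. The mitotic kinases were dim: Plk1 was good on 4 of 7 arrays and reached -0.13, Aurkb was good on 4 and reached 0.38, and Aurka was good on 5 and reached 1.21, each highest with Vitamin D5. Bub1b, a checkpoint kinase, was good on 4 arrays at levels between -1.07 and -0.57, and its brightest spot, 0.35 with Vitamin D5, was called irregular in shape.

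Among the genes that license and open replication, Mcm5, a helicase subunit, had log2 levels of -0.04 on αERKO, 0.67 on the array labelled βERKO, 0.42 on WT with DMBA, 1.78 on WT at 10 days, 0.29 on WT at 24 days, 1.56 on Balb/c and 2.55 on Balb/c with Vitamin D5. Mcm3, Mcm4 and Mcm6 shared its 3 highest arrays, with spans of 1.95 to 3.46, 2.95 to 4.09 and 0.30 to 2.30. Mcm7, of the same ring, ran -0.24, 0.90, 0.72, 1.23, 1.65, 0.72 and 1.87 in the order above, so WT at 24 days stood above WT at 10 days. Mcm2 ran from a spot near background on αERKO to 0.49 on WT at 10 days. Cdc6, a loader of the helicase, ran 1.06, 0.21, -0.07, 1.32, -0.17, 1.21 and 1.82, and here αERKO was above both other arrays of its comparison. Its partner Cdt1 lay between 3.08 and 4.02, and Gmnn, the inhibitor of Cdt1, between 1.34 and 2.69, both lowest on αERKO and highest with Vitamin D5.

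Among the nucleotide enzymes, Tk1, thymidine kinase of S phase, had log2 levels of 0.47 on αERKO, 0.90 on the array labelled βERKO, 0.55 on WT with DMBA, 2.49 on WT at 10 days, -0.03 on WT at 24 days, 2.65 on Balb/c and 3.53 on Balb/c with Vitamin D5. Its second probe read 0.49, 0.64, 0.52, 2.41, 0.03, 2.77 and 3.47, with the same 3 arrays highest. Tyms, thymidylate synthase, ran 2.89, 4.30, 3.59, 4.99, 4.80, 4.78 and 4.97, so that αERKO and WT with DMBA were low and WT at 24 days stayed close to 10 days. Rrm2, the regulated subunit of ribonucleotide reductase, spanned 1.38 (αERKO) to 3.49 (Vitamin D5). Rrm1, its large subunit, was good on 2 of 7 arrays, WT at 24 days (-0.96) and Vitamin D5 (-1.53). Dut, which removes dUTP, kept between 3.57 and 4.52. Pcna, the sliding clamp of DNA polymerase, ran 5.86, 6.54, 6.02, 6.52, 6.81, 6.50 and 6.42 and was highest on WT at 24 days.

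Of the regulators of S phase entry, Ccne1, cyclin E1, moved least of all members, from 0.00 to 0.57. Ccne2 was dim, and good on αERKO, the array labelled βERKO, WT with DMBA and WT at 10 days, where it lay between -1.48 and -0.80. E2f1 lay between 0.90 on WT at 24 days and 1.82 with Vitamin D5, and its αERKO spot (0.95) was called irregular. Ezh2, the histone methyltransferase and an E2F target, spanned 1.90 (αERKO) to 3.05 (Vitamin D5).

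How the members stood after regression was read from the C57 arrays of 10 and 24 days without DMBA. By the protocol, culture age and medium changed together. Pretreatment and pool are not given for either array, so none of these can be told apart. At 24 days, 10 of 19 mitosis members were over 2-fold lower and 0 higher, against 4.34% of 11887 genes lower and 5.47% higher. Cdk1 was 7.27-fold lower (log2 ratio -2.86), Ccna2 7.35-fold, Top2a 5.65-fold, Nusap1 5.25-fold and Birc5 3.49-fold. The other 5 were Tpx2 (-1.63), Cenpa (-1.53), Cdc20 (-1.45), Ccnb2 (-1.39) and Ube2c (-1.11). All 10 were good on both arrays, and their ratios lay outside the probe SD of 0.24. Kif11 read -0.45 on the probe used and -1.33 on its other probe, which was near background at 24 days. Only Foxm1 was higher by any amount, by 0.18, against 67.3% of genes higher by any amount. The median log2 ratio of mitosis members was -1.11, beside 0.16 over all genes.

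Replication members split in the same comparison. Over 2-fold lower were 5 of 19: Tk1 (5.73-fold, log2 ratio -2.52), Cdc6 (-1.49), Mcm5 (-1.49), Rrm2 (-1.28) and Ccne2, which was near background at 24 days and at least 1.58-fold lower. Mcm6 lay just inside the threshold. Pcna (0.29) and Mcm7 (0.41) were higher at 24 days, and Tyms (-0.19), Mcm2 (-0.07) and Ezh2 (0.08, and -0.01 under quantile normalization) lay within the probe SD. Rrm1, near background at 10 days, was at least 1.70-fold higher at 24 days. The median was -0.41. With normexp, 10 members of both classes in place of 16 were over 2-fold, and those that were not included Cdc20 (-0.85), Ube2c (-0.96), Cdc6 (-0.84) and Mcm5 (-0.95). Thymidine kinase and thymidylate synthase, on parallel routes to the same nucleotide, thus parted between 10 and 24 days.

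Other genes of the same processes, from lists of 50 mitosis and 45 replication genes, divided in the same way. These lists were written by hand with earlier results of these data known, so here and below they are no independent check. Of 35 other mitosis genes measured, 11 were over 2-fold lower at 24 days and 0 higher (median -0.74), with the largest ratios of probes good on both arrays at Hmmr (-1.87) and Prc1 (-1.74), both spindle proteins. Of 39 other replication genes, 4 were lower and 0 higher (median -0.02), among them Uhrf1 (-2.49), which recruits the maintenance DNA methyltransferase, and Pole (-1.56), a polymerase subunit. The adipocyte markers moved the opposite way, with 6 of 6 over 2-fold higher at 24 days and a summed intensity of 986 array medians against 294. Epithelial markers had a median log2 ratio of 0.06 (2 of 10 over 2-fold higher, 2 lower; summed 1358 against 1487). Over 2-fold higher were also 2 of 5 endothelial, 1 of 6 fibroblast and 1 of 8 lymphocyte markers, and lower were 1 of 6 fibroblast, 2 of 8 lymphocyte and 1 of 8 skeletal muscle markers. Among them, Col1a2 (fibroblast, higher) and Cd3e (lymphocyte, lower) were near background on both arrays. The part of all these markers in the result was not tested.

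**Figure D2:**
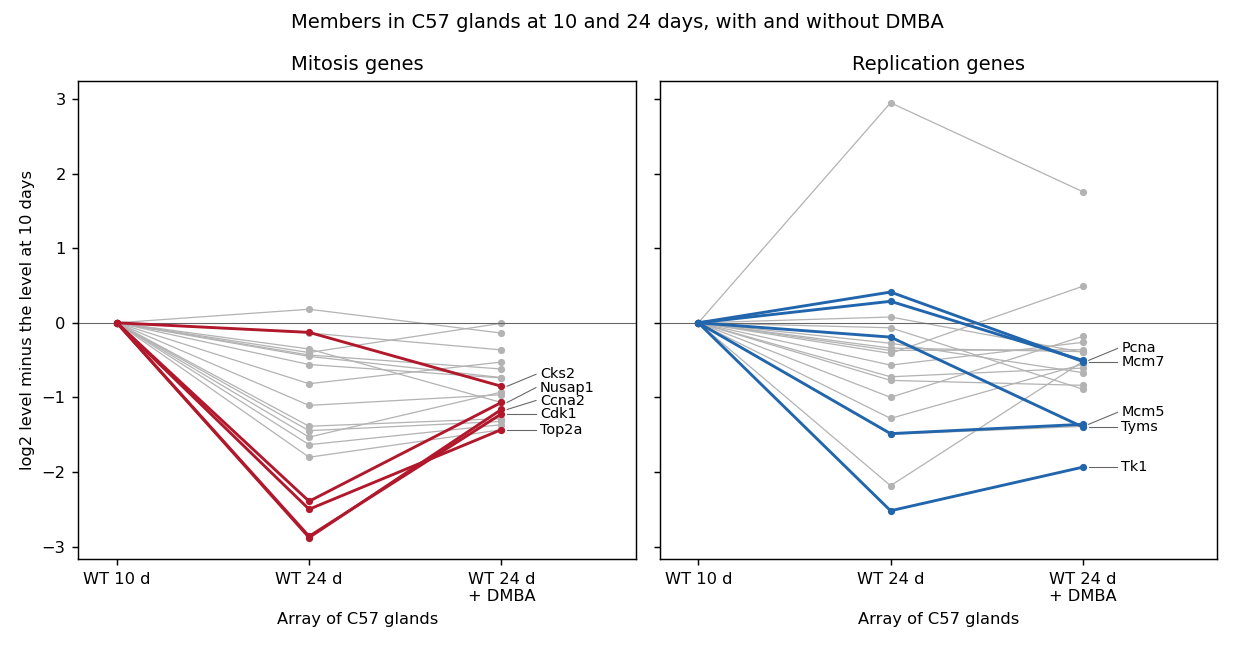
Log2 level minus the level at 10 days (y axis) of each member on the 3 C57 arrays (x axis, 1 array each); every line is a gene, with named genes in colour. Cdk1, Ccna2, Top2a, Nusap1, Tk1 and Mcm5 drop by 24 days, and with DMBA the first 4 lie closer to 10 days while Pcna, Mcm7 and Tyms lie below both arrays without DMBA; the grey line at the top is Rrm1, near background at 10 days and with DMBA.

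How these levels stood with and without DMBA at 24 days was read from both C57 arrays of that age. The pretreatment and pool of the array without DMBA are not given, so DMBA cannot be told apart from these. With DMBA, 4 of 18 mitosis members were over 2-fold higher and 0 lower, against 11.6% of 12150 genes higher and 7.79% lower. They were Ccna2 (3.29-fold, log2 ratio 1.72), Cdk1 (3.12-fold, 1.64), Nusap1 (2.50-fold, 1.32) and Top2a (2.09-fold, 1.07), which are also the 4 mitosis members with the largest drop between 10 and 24 days. Both contrasts share the array of 24 days without DMBA, so these are not independent readings. With normexp background correction, Ccna2 read 0.93 and Top2a 0.44, and 3 members of both classes in place of 7 were over 2-fold. Under 2-fold but outside the probe SD of 0.31 were Cenpa (0.60), Bub1b (0.39) and Birc5 (0.37), which were higher, and Cks2 (-0.72), Foxm1 (-0.32) and Plk1 (near background with DMBA, at least 1.62-fold), which were lower. Ccnb2 (0.10), Cdc20 (0.12) and Ube2c (0.14) lay within it. The class median was 0.13, beside -0.15 over all genes, and 11 of 18 were higher by any amount, against 39.7% of genes.

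Replication members went both ways with DMBA. Ccne2, near background without DMBA, was at least 1.10-fold higher, and E2f1 (0.90), Mcm6 (0.82), Rrm2 (0.73) and Tk1 (0.58) were higher by less than 2-fold. Tyms was 2.31-fold lower (-1.21) and Rrm1, near background with DMBA, at least 1.88-fold lower. Mcm7 (-0.93), Mcm2 (-0.82) and Pcna (-0.79) were lower by less than 2-fold, all outside the probe SD. The median was 0.01, with 10 of 19 higher. Of 38 other replication genes, 1 was over 2-fold higher and 3 lower (median -0.30), with Mcm10, which helps fire origins (-1.21), and Chaf1b, of the chromatin assembly factor (-1.11), the lowest. Of 33 other mitosis genes 2 were higher and 0 lower (median 0.11). Stroma moved with this contrast: 6 of 6 fibroblast markers (summed 203 array medians against 12.4), 4 of 5 endothelial and 4 of 6 adipocyte markers were over 2-fold higher, as were 2 of 3 macrophage and 2 of 8 skeletal muscle markers, while 3 of 10 epithelial and 2 of 8 lymphocyte markers were lower. Among them, Ckm (skeletal muscle) and Ms4a1 (lymphocyte) were near background on both arrays. The part of all these markers in the result was not tested.

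The arrays labelled αERKO and βERKO were compared with WT to see how these genes stood in each genotype as labelled. Against WT with DMBA, 0 of 17 mitosis members on αERKO were over 2-fold apart, where 10.2% of 12189 genes were over 2-fold higher and 15.2% lower. Cdk1 (-0.04), Ube2c (-0.07), Ccna2 (-0.21) and Birc5 (0.18) were close to WT. The largest differences were Cks2 (-0.94) and Nusap1 (0.60), and only that of Cks2 lay outside the probe SD of 0.61. The median was -0.21, beside -0.17 over all genes, with 5 of 17 higher by any amount against 40% of genes.

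Of 18 replication members on αERKO, Cdc6 alone was over 2-fold apart, 2.19-fold higher (log2 ratio 1.13; 0.58 with normexp background correction, under 2-fold). The next were Mcm7 (-0.95), Mcm2 (-0.94; near background on αERKO), Rrm2 (-0.88) and E2f1 (-0.85; irregular spot), then Tyms (-0.70). The class median was -0.36 and 3 of 18 were higher. Of 36 other mitosis genes 3 were over 2-fold higher and 2 lower, the former including Kif2c, a microtubule depolymerase (10.1-fold, 3.33), and Pttg1, securin (5.06-fold, 2.34). Pttg1 was dim on WT with DMBA (-1.59), close to that array's lowest good value (-1.87), so its ratio is imprecise. Of 38 other replication genes 1 was higher and 1 lower among those over 2-fold, and the flap endonuclease Fen1 read -1.15. On αERKO, 8 of 8 skeletal muscle markers and 5 of 8 lymphocyte markers were over 2-fold higher and 6 of 10 epithelial markers lower (summed 490 array medians against 910). Also higher were 2 of 6 adipocyte, 2 of 6 fibroblast and 1 of 5 endothelial markers, and lower were 3 of 3 macrophage and 3 of 5 endothelial markers. Of the lower endothelial markers, Cdh5 was near background on both arrays. The part of all these markers in these values was not tested.

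On the array labelled βERKO, 0 of 18 mitosis and 0 of 18 replication members were over 2-fold from WT with DMBA, against 6.62% of 12077 genes higher and 7.29% lower. The most distant were Kif11 (0.85, and 0.26 on its second probe), Cks2 (0.79), Tyms (0.70) and Aurkb, which was near background on WT and at least 1.55-fold higher. Class medians were 0.09 and 0.19, beside 0.14 over all genes, and 12 of 18 mitosis and 14 of 18 replication members were higher, against 62.3% of genes. Of the other genes, Pttg1 was higher (1.95, against the same dim spot on WT with DMBA) and Kif2c lower (-1.38). Of the cell type markers, 6 of 8 for skeletal muscle, 1 of 10 for epithelium and 1 of 8 for lymphocytes were over 2-fold higher, and 5 of 6 for fibroblasts, 4 of 5 for endothelium, 2 of 6 for adipocytes, 1 of 3 for macrophages, 1 of 10 for epithelium and 1 of 8 for lymphocytes were lower. Those for lymphocytes, Ms4a1 (higher) and Cd3e (lower), were near background on both arrays. The part of all these markers in these values was not tested.

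Between both knockout arrays, 3 of 18 mitosis and 4 of 18 replication members were over 2-fold lower on αERKO and 0 higher, against 20.2% of 12006 genes lower and 11.8% higher. They were Cks2 (3.32-fold, -1.73), Kif11 (-1.15, but -0.02 on its second probe), Aurkb (near background on αERKO, at least 1.48-fold), Tyms (2.65-fold, -1.41), Mcm2 (near background on αERKO, at least 2.31-fold), Rrm2 (-1.19) and Mcm7 (-1.14). Cdk1 (0.03), Ccna2 (0.15) and Ccnb2 (0.26) were level. Medians were -0.23 and -0.42, beside -0.30 over all genes, and 7 and 3 members were higher by any amount, against 35.0% of genes. With normexp, 2 members in place of 7 were over 2-fold (Cks2, -1.28, and Tyms, -1.31), and at the 75th percentile Kif11 (-0.97), Aurkb (-0.92) and Mcm7 (-0.96) were under 2-fold. Over probes good on both arrays, Kif2c stood highest among other mitosis genes (4.71), and Hmmr (-1.44) and Spc25, of the outer kinetochore (-1.10), lowest. Over such probes, Fen1 (-1.38) and the checkpoint kinase Chek1 (-1.10) were lowest among other replication genes. On αERKO, 8 of 8 skeletal muscle, 6 of 6 fibroblast, 5 of 8 lymphocyte, 2 of 6 adipocyte and 2 of 5 endothelial markers were over 2-fold higher than on the array labelled βERKO, while 7 of 10 epithelial, 1 of 3 macrophage and 1 of 5 endothelial markers were lower. The lower endothelial marker, Cdh5, was near background on both arrays. The part of all these markers in these values was not tested. The knockout comparisons share arrays with one another.

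**Figure D3:**
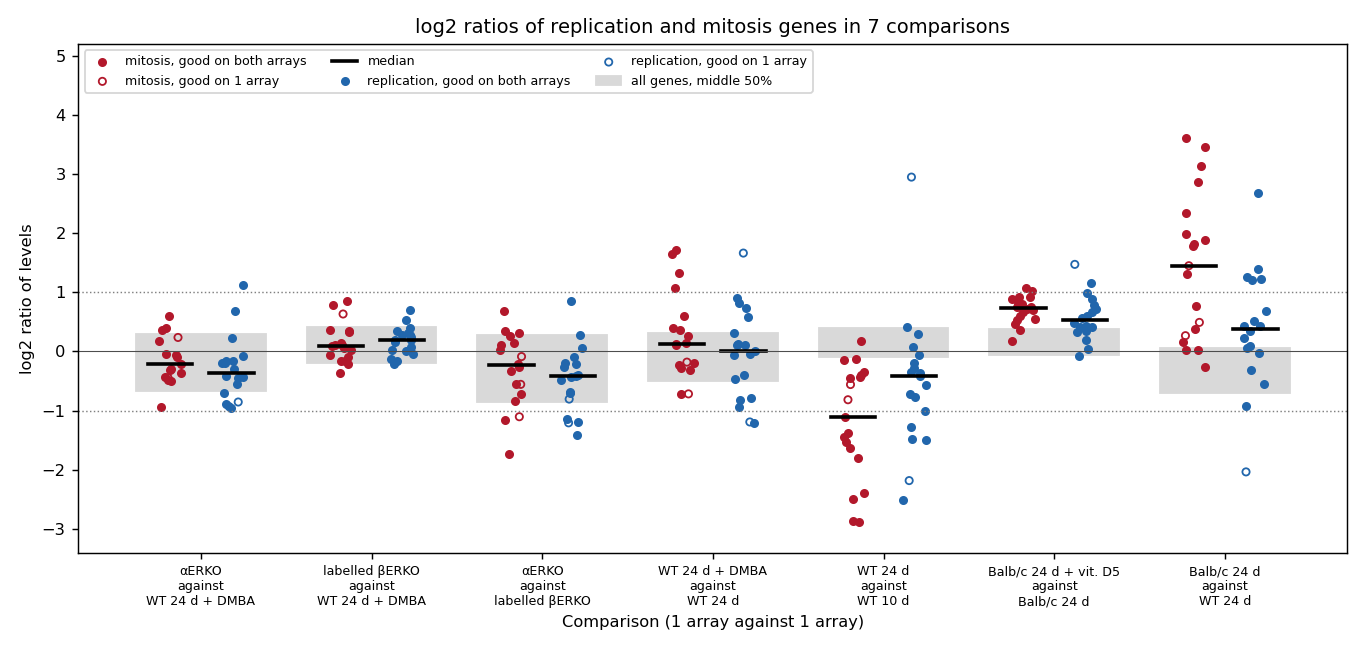
Log2 ratio (y axis) of each mitosis and replication member in the 7 comparisons (x axis), with 1 point per gene (filled where its probe was good on both arrays, open where on 1), a bar at each class median, a grey box for the middle 50% of all genes and dotted lines at 2-fold. Mitosis members lie lowest at 24 against 10 days (median -1.11) and highest on Balb/c against C57 (median 1.45).

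Strain was read at 24 days from Balb/c without Vitamin D5 against C57 without DMBA. The Balb/c title does not state whether DMBA was used, so strain and DMBA cannot be told apart. Pretreatment and pool are not given for either array, so these too cannot be told apart from strain. On Balb/c, 11 of 19 mitosis members were over 2-fold higher and 0 lower, against 6.22% of 12113 genes higher and 12.2% lower. Cdk1 was 12.2-fold higher (log2 ratio 3.60), Ccna2 by 3.46 on the log2 scale, Nusap1 8.77-fold, Top2a 7.33-fold and Birc5 5.09-fold. Ccnb2 (1.99), Tpx2 (1.88), Cdc20 (1.82), Cenpa (1.78) and Ube2c (1.30) followed, and Aurkb, near background on C57, was at least 2.37-fold higher. Foxm1 (-0.26), Cks2 (0.02), Plk1 (0.03) and Mad2l1 (0.17) lay within the probe SD of 0.33. The median was 1.45, beside -0.31 over all genes, with 18 of 19 higher by any amount against 28.2% of genes. Kif11 read 0.38 on the probe used and 1.76 on the other, which was near background on C57.

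Of 18 replication members, 5 were over 2-fold higher on Balb/c: Tk1 (6.40-fold, 2.68), Cdc6 (1.39), Mcm5 (1.27), Rrm2 (1.23) and Mcm6 (1.21). Rrm1, near background on Balb/c, was at least 1.78-fold lower. Mcm7 (-0.93) and Mcm2 (-0.55) were lower, while Tyms (-0.02), Ezh2 (0.05), Cdt1 (0.10) and Pcna (-0.31) lay within the probe SD. The median was 0.39 and 13 of 18 were higher. Of 36 other mitosis genes 17 were over 2-fold higher and 1 lower (median 0.90), with Prc1 at 2.42, Hmmr at 2.40 and Kif2c, the lower gene, at -1.08. Of 39 other replication genes 4 were higher and 1 lower (median -0.06), with Uhrf1 at 2.69, Pole at 2.01 and Orc5, of the origin recognition complex, at -1.02. This contrast uses the C57 array of 24 days that the contrasts of time and DMBA also use. Adipocyte markers were over 2-fold lower on Balb/c in 6 of 6 (summed 256 array medians against 986), and epithelial markers had a median log2 ratio of -0.45 (3 of 10 over 2-fold lower, 1 higher). Macrophage markers were lower in 2 of 3 (median -2.72), and fibroblast markers had a median of 0.84 (1 of 6 higher). Of the rest, 2 of 8 skeletal muscle, 1 of 8 lymphocyte and 1 of 5 endothelial markers were higher, and 1 of 8 lymphocyte and 2 of 5 endothelial markers lower. Among them, Pvalb (skeletal muscle) was near background on both arrays. The part of all these markers in the result was not tested.

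Vitamin D5 was read against Balb/c alone. Pretreatment, pool and DMBA condition are not given for either array, so Vitamin D5 cannot be told apart from these. All 18 mitosis members measured were higher with Vitamin D5, against 68.9% of 12177 genes, and 17 of 18 replication members were, with Pcna (-0.08) the exception and Ccne1 (0.05) below 0 when arrays were scaled to the 75th percentile (-0.08) or quantile normalized (-0.03). The differences were small. Over 2-fold higher were Aurka (2.10-fold, log2 ratio 1.07) and Plk1 (2.02-fold, 1.02) among mitosis members and Mcm7 (2.23-fold, 1.15) among replication members. Rrm1, a replication member, was counted with them (1.47), but near background without Vitamin D5 it is only known to be at least 1.20-fold higher. In either class 0 were over 2-fold lower, against 4.41% of genes higher and 4.39% lower. With normexp 0 of the 4 were over 2-fold (Aurka 0.66, Plk1 0.39, Mcm7 0.82, Rrm1 0.23), and with scaling to the 75th percentile Aurka (0.95) and Plk1 (0.89) were not. Just under 2-fold were Mcm5 (0.99), Ube2c (0.92), Ccna2 (0.92), Ccnb2 (0.89) and Tk1 (0.88). Kif11 (0.18), Tyms (0.19) and Ccne1 lay within the probe SD of 0.23.

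Because the median of all genes was itself 0.16 in this contrast (0.03 when scaled to the 75th percentile), members are also given relative to it. Mitosis members had a median of 0.73, which is 0.57 above that of all genes, and with normexp 0.48 above it. Replication members had a median of 0.53, which is 0.37 above it, and with normexp 0.27. Of 36 other mitosis genes 32 were higher (median 0.46), and of 39 other replication genes 34 were (median 0.35), with 0 over 2-fold in either direction. Epithelial markers were higher too, by a median log2 ratio of 0.60 (3 of 10 over 2-fold; summed 1680 array medians against 1234), and 3 of 6 fibroblast markers were over 2-fold higher. Adipocyte markers summed to 168 against 256 (1 of 6 over 2-fold lower). Of the rest, 1 of 3 macrophage and 1 of 8 skeletal muscle markers were higher, and 2 of 8 skeletal muscle, 2 of 8 lymphocyte and 1 of 5 endothelial markers lower. Among them, Itgam (macrophage, higher) and Cd3e (lymphocyte, lower) were near background on both arrays. The part of all these markers in the result was not tested.

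**Figure D4:**
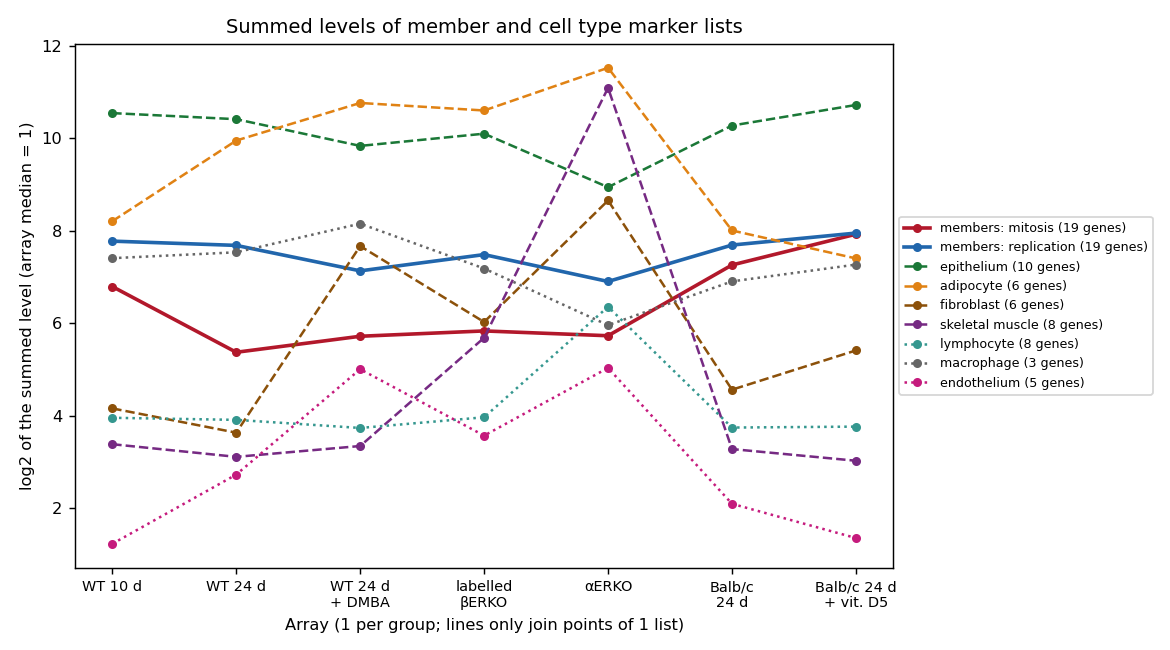
Log2 of the summed intensity over the array median (y axis) of the mitosis members, the replication members and the cell type marker lists on each of the 7 arrays (x axis). The summed mitosis members run from 41.3 array medians on WT at 24 days to 242 on Balb/c with Vitamin D5, and the adipocyte markers are highest on αERKO (2933) and lowest on Balb/c with Vitamin D5 (168).

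Summed over 19 genes, the mitosis members made 52.9 array medians of intensity on αERKO, 56.8 on the array labelled βERKO, 52.5 on WT with DMBA, 110.5 on WT at 10 days, 41.3 on WT at 24 days, 153 on Balb/c and 242 with Vitamin D5. The 3 arrays with the largest sums of mitosis members were those with the smallest sums of adipocyte markers (294 on WT at 10 days, 256 on Balb/c and 168 with Vitamin D5). Endothelial markers also had their smallest sums there (2.34, 4.26 and 2.55 in that order). The other lists did not. Fibroblast markers were smallest on WT at 24 days (12.4), lymphocyte markers on WT with DMBA (13.3), and epithelial (490) and macrophage (61.9) markers on αERKO. Skeletal muscle markers were smallest with Vitamin D5 (8.12) and next on WT at 24 days (8.61). Any link between these sums was not tested. Replication members summed to between 119 on αERKO and 246 with Vitamin D5, with 218 on WT at 10 days and 205 on WT at 24 days, sums in which Pcna weighs most.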

How the data were processed

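Gland RNA, pooled by group at least for the αERKO, βERKO and DMBA-treated WT arrays, was labelled and hybridized to 7 CodeLink Mouse Whole Genome arrays, 1 per group. The authors' CodeLink Expression Analysis software gave the deposited intensity, the spot mean minus local background, and called each spot good, near background, irregular or by rarer codes, which here counted as not good. The median intensity of gene probes was 39.1 to 53.0 over a local background of 80 to 83, so dim probes are imprecise.

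Intensities were divided by the array's median over 34967 gene probes, as in the study's methods, zero or negative values took the array's lowest positive one, and log2 was taken. RefSeq accessions named 14763 of 15553 probes (GRCm38.p6, 13971 genes), and a gene was given by its probe with the highest mean log2. A gene entered a comparison where either array called its probe good, and the threshold was 2-fold. Counts of cell type markers over 2-fold took every measured marker instead, including those near background on both arrays. For a spot near background, "at least" sets the good spot against the higher of that array's lowest good value and the dim spot. Counts over 2-fold use the ratio as measured, so they include some genes whose "at least" value is under 2-fold. Groups of 1 array allow no test, so counts stand beside those of all genes.

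All members were named, and of the other listed genes the 2 each way with the largest ratio over 2-fold among probes good on both arrays. Members and lists were written by hand with earlier results of these data known. Alternatives were the 75th percentile, quantile and normexp (offset 50) normalization, the deposited normalized intensity, a floor at the lowest good value, probes good on both arrays, the mean over probes and a 3-fold threshold. The counting was tested on simulated data. The deposited series table (36227 entries, no probe names) was not used. Python 3.11.15, pandas 2.3.3, R 4.3.3 and limma 3.58.1 were used.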

Additional observations from a re-analysis of the deposited data

How the results depend on the processing

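No median of a class changed sign under any of the alternatives run, nor did any member over 2-fold. Relative to the median of all genes, quantile normalization did change the sign of 2 small mitosis values. These went from -0.04 to 0.02 for αERKO against WT with DMBA, and from -0.04 to 0.01 for the array labelled βERKO. Of 1530 values of single genes, 1471 stayed within the SD between probes of 1 accession. Of the values of whole classes 167 were close and 29 moved. Some alternatives could hardly move a member, so these counts overstate how far the processing was tried. The deposited normalized intensity divides by nearly the same number as the main scaling (39.4 against 39.1 on αERKO). The mean over probes can change only the 2 members with more than 1 probe. The floor can change only spots below the lowest good value. Normexp with an offset pulls dim spots together and lowered the median log2 levels of mitosis members to 0.25 on αERKO, 0.61 on the array labelled βERKO, 0.47 on WT with DMBA, 1.25 on WT at 10 days, 0.52 on WT at 24 days, 1.33 on Balb/c and 1.99 with Vitamin D5, and those of replication members to 0.55, 1.03, 1.15, 1.47, 0.90, 1.52 and 1.89. The mitosis median for 24 against 10 days became -0.85 with normexp and -1.39 over probes good on both arrays, and that for Balb/c against C57 became 1.80 over probes good on both.

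Counts of members over 2-fold fell with normexp from 16 to 10 for 24 against 10 days, from 7 to 3 for DMBA, from 7 to 2 between the knockout arrays, from 1 to 0 for αERKO against WT and from 4 to 0 for Vitamin D5. At 3-fold they were 9, 3, 1, 0 and 0 in that order, and 11 of 17 for Balb/c against C57. Scaling to the 75th percentile left 2 of 4 for Vitamin D5. That scaling moved the median of all genes by 0.13 for αERKO against WT, 0.18 between the knockout arrays, -0.13 for Vitamin D5 and 0.22 for Balb/c against C57. No paired analysis was possible because each group has 1 array. Precision is limited by the number of arrays and, for Plk1, Aurkb, Bub1b, Ccne2 and Rrm1, by signal close to background.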
